A study of Mus musculus with 6 samples.

Results

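The AP-1 transcription factors of the Fos and Jun families are described here through the accessible regions of their 8 genes in NIH3T3 cells, an established mouse fibroblast line. The members were all regions that the deposited ATAC-seq table assigned to Fos, Fosb, Fosl1, Fosl2, Jun, Junb, Jund or Atf3 (17 regions), together with the regions without a gene symbol within 50 kb of the listed span of any of these genes (58 regions). These 75 regions, of 52957 in the table, were found by name and position. Of the 58, 24 carried an Ensembl identifier without a symbol, mostly of noncoding RNA genes, and were kept. In ATAC-seq the transposase Tn5 cuts and tags accessible DNA, and the read number of a region is taken here as its accessibility. Other influences on read number were not tested. In 3 libraries an active T3H48 hammerhead ribozyme, an RNA that cuts itself, had been knocked into intron 3 of Actg1, which encodes cytoplasmic gamma-actin, and in 3 libraries an inactive form at the same place. Both groups were otherwise untreated as far as the labels say. The labels leave out whether the cultures or lines behind a group were separate, or whether a line was a single clone. The p-values therefore rest on library-to-library spread that may be technical, and ribozyme activity and line history cannot be told apart. Accessibility of Actg1 itself was not analysed here.

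AP-1 is a dimer of basic leucine zipper proteins. Jun proteins pair with each other or with Fos proteins, whereas Fos proteins need a Jun partner, and the dimers bind the DNA element TGACTCA or, with ATF partners, the cyclic AMP response element (CRE) TGACGTCA. Fos, Fosb, Jun, Junb and Atf3 are immediate-early genes, which fibroblasts switch on within minutes of serum, growth factors or stress through MAP kinases, while Fosl1, Fosl2 and Jund are slower or more constant. Among the members are also different strengths: Fos and FosB carry strong activation domains, the Fos-related antigens encoded by Fosl1 and Fosl2 lack them, and JunB and JunD activate more weakly than Jun in many settings.

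Promoter sequences are shown for Fos, Jun and Fosb, in each of which a site of the kind bound by leucine zipper factors was found. They run from 250 bases before to 50 bases after the start in RefSeq (build GRCm38.p6, while the ATAC-seq positions are on mm39), and capitals mark matches to TGACG, the half-site of the CRE, or to TGACATCA, the Jun-type site. Fos lies at chr12:85473640-85473939 on the plus strand, Jun at chr4:95052173-95052472 on the minus strand and Fosb at chr7:19309996-19310295 on the minus strand.
Fos: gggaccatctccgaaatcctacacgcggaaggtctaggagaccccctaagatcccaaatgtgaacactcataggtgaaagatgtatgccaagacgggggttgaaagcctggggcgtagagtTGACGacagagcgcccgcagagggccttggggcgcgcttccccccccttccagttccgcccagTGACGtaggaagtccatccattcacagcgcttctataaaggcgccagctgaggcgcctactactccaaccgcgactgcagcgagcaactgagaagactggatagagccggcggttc
Jun: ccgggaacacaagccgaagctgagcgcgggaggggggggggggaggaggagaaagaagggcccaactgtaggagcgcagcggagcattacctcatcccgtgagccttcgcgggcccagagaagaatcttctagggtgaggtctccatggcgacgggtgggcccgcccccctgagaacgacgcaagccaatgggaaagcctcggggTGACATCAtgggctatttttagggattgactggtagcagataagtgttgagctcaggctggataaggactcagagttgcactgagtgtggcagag
Fosb: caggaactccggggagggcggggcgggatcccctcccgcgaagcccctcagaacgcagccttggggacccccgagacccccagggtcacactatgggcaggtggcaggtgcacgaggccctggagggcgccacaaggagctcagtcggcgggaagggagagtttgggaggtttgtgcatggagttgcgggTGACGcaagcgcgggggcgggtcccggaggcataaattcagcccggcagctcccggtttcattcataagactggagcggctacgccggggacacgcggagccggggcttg
In Fos the half-site began 129 and 66 bases before the start, with the TATA box motif TATAAA 33 bases before it. In Jun TGACATCA began 45 bases before the start, and in Fosb TGACG began 60 bases before it. Over all 32851 RefSeq windows of this length, 20.8% held TGACG on either strand (TGACGTCA, which contains it, stood in 1.79%), 3.62% held TGACATCA, 13.6% held TATAAA and 5.2% held TGACTCA. RefSeq windows were matched for 7 of the 8 members. The windows of Fosl2 and Jund held none of the 3 zipper sites nor TATAAA. That of Junb held TGACG 106 bases before the start and TATAAA beginning at the start itself. The RefSeq gene of Fos was 3385 bp long against a listed span of 3384 bp, and that of Jun 3187 bp against 3189 bp. For Fosb it was 7423 bp against 7356 bp and for Fosl2 21369 bp against 22042 bp. The annotations differed more for Junb (1840 bp against 4235 bp) and Jund (2878 bp against 1667 bp), and most for Atf3 (13038 bp against 47744 bp). The windows of these 3 genes are not printed, and no motif position is given for Atf3, whose RefSeq start may lie far from the listed one. The windows of Junb and Jund may also lie away from the measured promoter regions. These matches describe the letters and say nothing of binding.

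The deposited values were read totals per region, divided by a factor for each library and rounded, and are called normalised reads below. Totals over all regions ranged from 6477397 to 6548535 with the active ribozyme and from 6433944 to 6527654 with the inactive one. The reads behind them, estimated from the spacing of the rounded values, came to 3710000 to 6840000 in active and 7330000 to 8960000 in inactive libraries, so that counting error weighs more on weak regions in the active group. Correlations of log2 values over all regions ranged from 0.967 to 0.975 for pairs of active libraries, from 0.981 to 0.983 for inactive pairs and from 0.826 to 0.834 across groups. Of 15 fibroblast markers, 12 had a promoter region, Thy1, Pdgfra and Fbn1 being without one, and their summed values were 3448 to 3660 in active libraries, against 4546 to 4692 in inactive ones. No promoter region was listed for 6 epithelial and 3 muscle markers, 1 of 5 blood markers had one (Cd68, 51 to 69 with the active ribozyme and 51 to 57 with the inactive one), as did 1 of 4 endothelial markers (Kdr, 74 to 82 in active and 5 to 9 in inactive libraries). The part of these differences in the results below was not tested.

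Across the AP-1 genes, changes ran in both directions and differed from gene to gene. Changes were tested with limma on log2(value + 1) over 51253 regions with a mean of at least 10, and a region was called higher or lower in the active libraries at a Benjamini-Hochberg adjusted p under 0.05. Of the 75 AP-1 regions 74 were tested, the exception being a low region near Jun (6, 7 and 8 in active libraries, against 3, 10 and 5 in inactive ones). Of the 74, 20 (27.0%) were higher and 25 (33.8%) were lower, while over all regions 30.9% were higher and 29.2% lower. The median log2 fold change was -0.13, against -0.02 over all regions. The shares of called AP-1 regions thus lay near those of the whole table. The 3 active libraries lay wholly above the inactive ones in 18 regions and wholly below in 25 (31.8% and 30.5% of all regions). A change of at least 2-fold was called in 3 AP-1 regions, all lower. Over all tested regions the 5th to 95th percentile of the log2 fold change ran from -1.17 to 1.9. The share of all regions called with such a change was not counted. Of the 57 tested regions without a symbol 18 were higher and 16 lower, against 34.0% and 26.7% of all such regions. Of the 10 annotated regions more than 1 kb from a start 1 was higher and 5 were lower, against 25.8% and 32.5% of all such regions. In bulk libraries a region open in fewer cells and one less open in every cell cannot be told apart.

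The promoter regions, those at most 1 kb from the listed start site, were lower in 4 of 7 genes (Fosb, Jun, Junb and Jund) and higher in 1 (Fos), while those of Fosl1 and Fosl2 did not pass. Over all 9650 promoter regions tested, 37.6% were lower and 21.0% higher. Atf3 had no region within 1 kb of its listed start. All distances are from listed starts. The plot of promoter values by library shows these 7 regions.

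**Figure D1:**
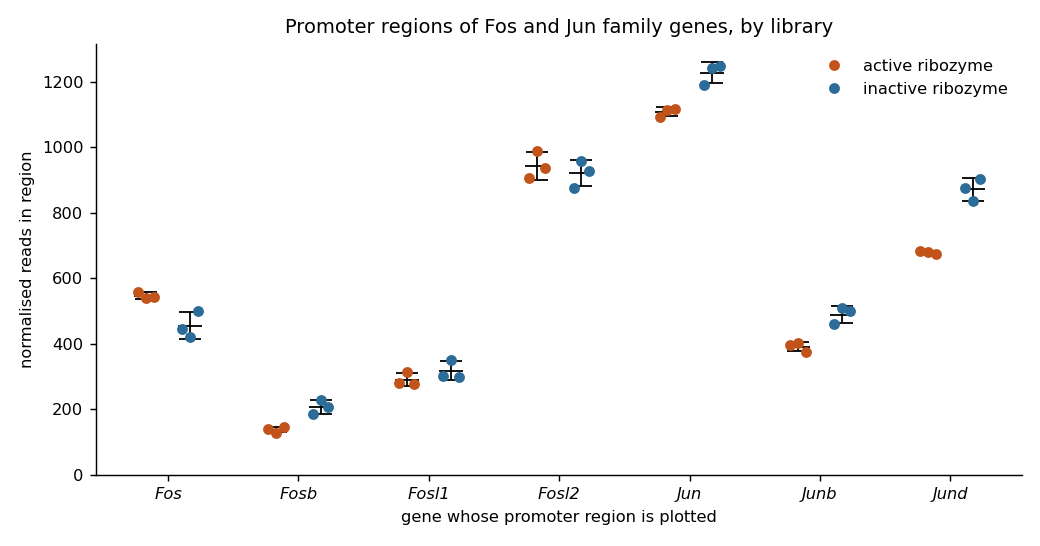
Normalised reads (y axis) in the promoter region of 7 genes (x axis) in each library, with active libraries to the left of inactive ones; points are libraries, black bars the mean and SD of 3. Active and inactive points do not overlap for Fos, Fosb, Jun, Junb and Jund, and overlap for Fosl1 and Fosl2.

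Fos, the founding member and a gene sharply induced by serum, had more normalised reads in the active line at its promoter and at nearly all surrounding regions. Chromosome 12 as a whole was shifted upward (median log2 fold change 0.50), and by more than the promoter, as given below. Its promoter region (chromosome 12, 85520179 to 85521157, centred 4 bp from the start) had 559, 541 and 542 normalised reads with the active ribozyme and 444, 422 and 501 with the inactive one. All active values lay above all inactive ones. The log2 fold change was 0.27 ± 0.06 SE (limma adjusted p = 3.13e-04, n = 3 per group). In limma without trend this call was lost (adjusted p = 0.0586). The most accessible region of the locus lay 18.4 kb upstream (85501735 to 85502743). It had 909, 958 and 864 in active and 677, 690 and 739 in inactive libraries, again without overlap (log2 fold change 0.37 ± 0.05 SE, limma adjusted p = 4.42e-08).

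Downstream of Fos some increases were larger. The region at 85532528 to 85533197 rose by only 0.23 on the log2 scale, and that at 85573914 to 85574117 did not pass (0.04, limma adjusted p = 0.91). A region 23.9 kb downstream (85544258 to 85544904) had 252, 323 and 306 in active libraries, against 148, 161 and 164 in inactive ones (log2 fold change 0.89 ± 0.09 SE, limma adjusted p = 3.45e-11). It kept its call with every setting tried. A weaker region 18.4 kb downstream (85538932 to 85539163) had 42, 55 and 38 with the active ribozyme and 18, 16 and 37 with the inactive one (0.98 ± 0.24 SE, limma adjusted p = 5.98e-04). That at 85566252 to 85566691, annotated to an unnamed noncoding RNA gene, averaged 100.3 ± 14.8 in active and 60.3 ± 6.11 in inactive libraries (0.72 ± 0.14 SE). In all, 7 of the 8 Fos regions rose and 0 fell, on a chromosome whose median log2 fold change was 0.50. Over all regions 30.9% were higher and 29.2% lower. The counts of this and the following genes are to be read beside these shares and the local shift. The shares called among the regions around each gene were not computed. The locus sum was 2464 ± 92.5 in active libraries, against 1877 ± 90.7 in inactive ones (SD, n = 3 each). The log2 ratio of the sums was 0.39. An exact two-sided permutation test of the sum gave p = 0.1, the smallest that 3 against 3 libraries allow, so that none of the 8 locus sums tested in this way could pass 0.05. The weak region at 85534418 to 85534737 (log2 fold change 0.44) no longer passed when active replicate 1 (0.35), active replicate 3 (0.42) or inactive replicate 2 (0.30) was left out.

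The chromosome around Fos was shifted upward as a whole. The local shift is given here as the median log2 fold change of all tested regions in the fixed 10 Mb window that holds the gene. For Fos (80 to 90 Mb) it was 0.45 over 262 regions, and the whole of chromosome 12 stood at 0.50. When each library was first centred on the median of its window, the promoter turned to a lower value (log2 fold change -0.22, limma adjusted p = 0.00296). The upstream region went to -0.11 (limma adjusted p = 0.0624) and lost its call. The region 23.9 kb downstream stayed higher (0.40, limma adjusted p = 1.91e-04), and was the only 1 of the 8 called higher then. The second region called lower, at 85532528 to 85533197, had 441, 498 and 512 with the active ribozyme and 390, 433 and 411 with the inactive one (0.23 uncentred, -0.25 centred). The increase at the Fos promoter was thus smaller than that of its chromosomal surroundings. Centring subtracts a median per library, so that a centred change can differ by a little from the change minus the window median.

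Fosb, which encodes a close relative of Fos with its own activation domain, had the largest promoter loss of the 7 genes. Its promoter region (chromosome 7, 19043932 to 19044505) had 139, 129 and 145 normalised reads in active and 185, 227 and 207 in inactive libraries. The groups did not overlap, and the active mean was 0.667 of the inactive one (log2 fold change -0.58 ± 0.10 SE, limma adjusted p = 2.28e-06). The second Fosb region, inside the gene 1.83 kb from the start (19041470 to 19042815), had 291, 304 and 292 in active libraries, against 288, 311 and 284 in inactive ones. It did not pass (log2 fold change 0.01, 95% interval -0.14 to 0.15, limma adjusted p = 0.938). Centred on the window it was higher (0.19, limma adjusted p = 0.0266). Of the neighbouring annotated regions of this gene, the promoter passed and the inner region did not; the difference between them was not tested.

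Around Fosb 6 of 11 regions fell and 0 rose, beside 29.2% lower and 30.9% higher of all regions. The strongest was a region at 19034486 to 19034955, 26 bp from the listed start of a noncoding RNA gene without a symbol, with 24, 32 and 27 with the active ribozyme and 39, 59 and 57 with the inactive one (-0.86 ± 0.20 SE, limma adjusted p = 2.73e-04). Upstream of Fosb, the region at 19060426 to 19060742 was at 24.7 ± 8.08 in active and 43.3 ± 3.79 in inactive libraries (-0.84). Its neighbour at 19060945 to 19061545 was at 102.3 ± 14.3 in active libraries, against 144.7 ± 14.0 in inactive ones (-0.50). The most accessible unnamed region, at 19050609 to 19051259, was at 255.7 ± 21.1 with the active ribozyme and 286.3 ± 12.9 with the inactive one and did not pass (limma adjusted p = 0.0653). The window median was -0.20, and with centred values 5 regions remained lower, the promoter among them (-0.39, limma adjusted p = 6.91e-04), and 1 was higher. Nearer by, of 6 further tested regions within 50 kb, assigned to other named genes, 2 fell and 0 rose, with a median of -0.16. The locus sum was 1325 ± 23.3 in active and 1634 ± 71.1 in inactive libraries (log2 ratio -0.30, exact permutation p = 0.1).

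Fosl1, which encodes the Fos-related antigen Fra-1, known from motile and transformed fibroblasts, fell at a region inside the gene, while its promoter did not pass the test. The window median was -0.35, and centring on it changed both results, as given below. The promoter region (chromosome 19, 5497537 to 5498078) had 281, 313 and 277 in active libraries, against 303, 352 and 299 in inactive ones, which overlapped (log2 fold change -0.13, 95% interval -0.28 to 0.03, limma adjusted p = 0.143). A region within the gene 1.27 kb from the start (5498623 to 5499077) fell, with 167, 164 and 195 with the active ribozyme and 254, 253 and 237 with the inactive one (-0.50 ± 0.09 SE, limma adjusted p = 4.51e-06). The region 2.47 kb upstream (5494718 to 5495492) was at 269.3 ± 13.6 in active and 299 ± 14.4 in inactive libraries and did not pass (limma adjusted p = 0.0807).

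Of 6 Fosl1 regions 4 fell and 0 rose, in a window whose median was -0.35. Over all regions 29.2% were lower and 30.9% higher. The largest change was in a low region 38.2 kb upstream (5459203 to 5459491), with 7, 9 and 8 in active libraries, against 17, 26 and 18 in inactive ones (-1.23 ± 0.33 SE, limma adjusted p = 0.00151). The most accessible unnamed region, at 5482862 to 5483843, was at 351 ± 17.7 with the active ribozyme and 438.3 ± 27.4 with the inactive one (-0.32), and that at 5482046 to 5482390 was at 165.3 ± 23.5 in active and 214 ± 17 in inactive libraries (-0.38). With centred values the region at 5459203 stayed lower (-0.88), whereas the promoter (0.22, limma adjusted p = 0.0126) and the region 2.47 kb upstream (0.20, limma adjusted p = 0.0223) were higher. The other 3 did not pass, among them the region inside the gene at 5498623 (-0.15, limma adjusted p = 0.145). Of 9 further tested regions within 50 kb, which the table assigns to other named genes, 8 fell, with a median of -0.37. The locus sum was 1259 ± 36.2 in active libraries, against 1538 ± 75.1 in inactive ones (log2 ratio -0.29, exact permutation p = 0.1), and 0.06 with centred values.

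Fosl2, which encodes Fra-2, a Fos protein with roles in connective tissue and bone, fell at regions just upstream, while its promoter did not pass the test. The promoter region (chromosome 5, 32292369 to 32293497) had 905, 988 and 936 with the active ribozyme and 877, 957 and 929 with the inactive one (log2 fold change 0.03, 95% interval -0.06 to 0.13, limma adjusted p = 0.554). The region 2.57 kb upstream (32290406 to 32290743) had 47, 58 and 56 in active and 83, 85 and 86 in inactive libraries (-0.65 ± 0.14 SE, limma adjusted p = 1.54e-04). The region 2.05 kb upstream (32290961 to 32291229) had 80, 87 and 98 in active libraries, against 111, 121 and 118 in inactive ones (-0.40 ± 0.12 SE, limma adjusted p = 0.00388). Neither pair of groups overlapped.

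Within Fosl2, 10.6 kb downstream of the start, a weak region rose (32303620 to 32303886). It had 44, 32 and 33 with the active ribozyme and 21, 17 and 19 with the inactive one (0.89 ± 0.23 SE, limma adjusted p = 9.31e-04). Farther downstream the region at 32353244 to 32353793 rose less, at 253 ± 5.29 in active and 213 ± 10.1 in inactive libraries (0.25). The region at 32334202 to 32334611 was also called higher (0.52), but the call was lost without active replicates 2 (0.42) or 3 (0.52), or without inactive replicates 1 (0.45) or 3 (0.40). The most accessible unnamed region, at 32349285 to 32349959, was at 367.7 ± 36.3 in active libraries, against 403.3 ± 33.3 in inactive ones and did not pass (limma adjusted p = 0.105). In all 3 of 11 Fosl2 regions rose and 2 fell, and the locus sum was 2133 ± 50.5 with the active ribozyme and 2129 ± 84.8 with the inactive one (log2 ratio 0.00, exact permutation p = 0.9). The window median was 0.12. With centred values both upstream regions stayed lower (-0.78 and -0.53), the region 10.6 kb downstream stayed higher (0.77), and the 2 other regions called higher lost their calls. The most accessible unnamed region (32349285) was then called lower (-0.26, limma adjusted p = 0.00307).

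**Figure D2:**
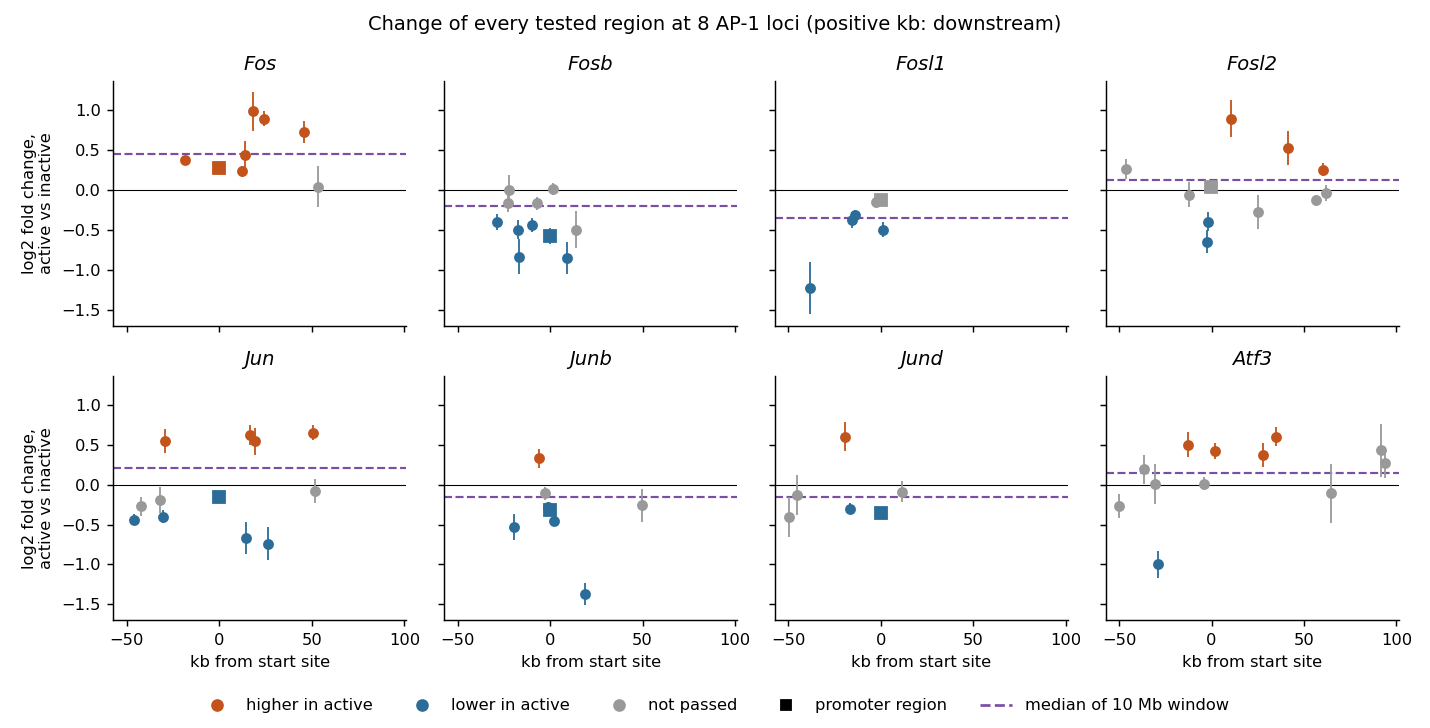
Log2 fold change, active against inactive (y axis), of each tested region at 8 genes by its distance in kb from the listed start site (x axis, positive downstream); bars are 1 SE from limma, squares are promoter regions, and the dashed line is the median of the 10 Mb window. Fos regions lie above 0 in a window at 0.45, Fosb regions mostly below 0 in a window at -0.20, and Jun regions on both sides.

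Jun, the central partner of most AP-1 dimers and an autoregulated gene, had a slightly less accessible promoter in the active line. It was the largest of these promoter regions in total reads and in width (chromosome 4, 94939933 to 94941724). It had 1093, 1115 and 1117 in active and 1191, 1243 and 1248 in inactive libraries, without overlap (log2 fold change -0.15 ± 0.04 SE, limma adjusted p = 0.00266). In limma without trend the call was lost (adjusted p = 0.167). Its window was shifted upward, with a median of 0.21 over 130 regions, and centred on it the promoter stood at -0.31 (limma adjusted p = 1.15e-07).

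The flanks of Jun split into regions that rose and regions that fell. Of the 12 tested Jun regions 4 rose and 5 fell. Upstream, the 2 strongest flanking regions fell. That 46.4 kb upstream (94986511 to 94987148) had 259, 288 and 300 in active libraries, against 378, 396 and 377 in inactive ones (-0.44 ± 0.07 SE, limma adjusted p = 1.21e-06). That 30.4 kb upstream (94970544 to 94971222) had 245, 237 and 231 with the active ribozyme and 332, 308 and 305 with the inactive one (-0.40 ± 0.08 SE, limma adjusted p = 1.39e-05).

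Less than 1 kb from that region, the one at 94969941 to 94970215 rose, at 72 ± 2.65 in active and 49.7 ± 7.51 in inactive libraries (0.54, limma adjusted p = 0.00284). Downstream of Jun, the region at 94889427 to 94890064 rose the most, with 236, 292 and 271 in active libraries, against 183, 164 and 161 in inactive ones (0.65 ± 0.09 SE, limma adjusted p = 4.87e-08). The region at 94923643 to 94924114 rose, at 117 ± 22.3 with the active ribozyme and 75 ± 4.58 with the inactive one (0.62 ± 0.13 SE). The region at 94926141 to 94926515, next to it, fell, at 31.7 ± 10.8 in active and 49.7 ± 6.11 in inactive libraries (-0.67 ± 0.20 SE). Both carry the identifier of the same processed pseudogene. The region at 94914134 to 94914587 fell also (32.7 ± 13.3 in active libraries, against 53 ± 6.24 in inactive ones, -0.74). In these 2 falls 1 active value lay within the inactive range, and in limma without trend the calls were lost at 94926141 (adjusted p = 0.0525) and at 94914134 (adjusted p = 0.0573). The locus sum was 2413 ± 50.5 with the active ribozyme and 2598 ± 17 with the inactive one (log2 ratio -0.11, exact permutation p = 0.1).

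Junb, which encodes an immediate-early Jun protein that can hold back Jun activity, was less accessible at its promoter and at 4 of the 7 other regions, on both sides of the start. The promoter region (chromosome 8, 85705089 to 85705595, centred 5 bp from the start) had 395, 403 and 375 in active and 459, 508 and 501 in inactive libraries (log2 fold change -0.32 ± 0.06 SE, limma adjusted p = 3.22e-05). A region 2.27 kb downstream (85702749 to 85703398) had 327, 350 and 313 in active libraries, against 467, 447 and 434 in inactive ones (-0.45 ± 0.07 SE, limma adjusted p = 2.81e-07). The stronger region 1.32 kb upstream (85706241 to 85707101) had 686, 645 and 629 with the active ribozyme and 722, 824 and 841 with the inactive one (-0.28 ± 0.06 SE, limma adjusted p = 3.32e-05). None of these 3 regions overlapped between the groups. In limma without trend the last of these calls was lost (adjusted p = 0.0527).

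The largest fall among all AP-1 regions lay 18.7 kb downstream of the Junb start (85686403 to 85686921). It had 63, 41 and 54 in active and 128, 156 and 125 in inactive libraries (-1.37 ± 0.14 SE, limma adjusted p = 6.24e-11). A region 6.13 kb upstream (85711302 to 85711649), assigned to an unnamed noncoding RNA gene, went the other way, with 127, 134 and 112 in active libraries, against 91, 95 and 110 in inactive ones (0.33, limma adjusted p = 0.0138). That call was lost without active replicate 2 (0.28) or inactive replicates 1 (0.28) or 2 (0.31). The region at 85724436 to 85724948 fell, at 51.7 ± 13.4 with the active ribozyme and 74 ± 8.19 with the inactive one (-0.53), with 1 active value equal to the lowest inactive one. The region 2.5 kb upstream of the start (85707708 to 85707976) was at 216.3 ± 15.6 in active and 233.7 ± 5.03 in inactive libraries and did not pass (limma adjusted p = 0.239). Of 8 regions 5 fell and 1 rose, beside 29.2% lower and 30.9% higher of all regions. The same 5 were lower with centred values, the window median being -0.16, among them the promoter (-0.18, limma adjusted p = 0.0164). Nearer by, of 8 further tested regions within 50 kb, assigned to other named genes, 6 fell and 1 rose, with a median of -0.39. The locus sum was 1854 ± 55.8 in active libraries, against 2318 ± 107 in inactive ones (log2 ratio -0.32, exact permutation p = 0.1).

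Jund, which encodes the Jun protein that resting fibroblasts express most steadily, fell at its promoter. The region (chromosome 8, 71151037 to 71152058) had 684, 680 and 673 with the active ribozyme and 875, 835 and 904 with the inactive one, without overlap (log2 fold change -0.36 ± 0.05 SE, limma adjusted p = 6.17e-08). The region 16.5 kb upstream (71134646 to 71135601) fell by a like amount, with 336, 346 and 386 in active and 434, 443 and 437 in inactive libraries (-0.30 ± 0.07 SE, limma adjusted p = 1.59e-04). A weaker region close to it, 19.2 kb upstream (71132237 to 71132529), rose, with 55, 48 and 47 in active libraries, against 32, 31 and 35 in inactive ones (0.60 ± 0.18 SE, limma adjusted p = 0.00468). The other 3 of the 6 regions did not pass. The window median was -0.15, and all 3 calls held with centred values, the promoter at -0.24 (limma adjusted p = 1.09e-04). Nearer by, of 4 further tested regions within 50 kb, assigned to other named genes, 3 fell and 0 rose, with a median of -0.28. The locus sum was 1211 ± 18.5 with the active ribozyme and 1481 ± 22 with the inactive one (log2 ratio -0.29, exact permutation p = 0.1).

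Atf3, a stress-induced factor that pairs with Jun proteins and often represses, rose at regions within its listed span and at a region upstream, and fell at a region farther upstream. Its annotated region 1.69 kb downstream of the start (chromosome 1, 190948121 to 190948978) had 222, 187 and 253 in active and 175, 159 and 156 in inactive libraries (log2 fold change 0.42 ± 0.10 SE, limma adjusted p = 2.41e-04). That 4.14 kb upstream (190954137 to 190954615) had 238, 221 and 236 in active libraries, against 253, 226 and 211 in inactive ones, which overlapped (0.01, 95% interval -0.16 to 0.18, limma adjusted p = 0.898). The most accessible unnamed region lay 35 kb downstream of the listed start, within the listed span (190914602 to 190915812). It had 115, 106 and 113 with the active ribozyme and 78, 67 and 75 with the inactive one (0.60 ± 0.12 SE, limma adjusted p = 7.61e-05). The RefSeq gene of Atf3 is shorter than the listed span (13038 bp against 47744 bp), and its start may lie far from the listed one.

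Upstream of Atf3 a region at 190962580 to 190963139 rose, with 86, 58 and 76 in active and 52, 45 and 56 in inactive libraries (0.50, limma adjusted p = 0.00634), a call lost without active replicate 1 (0.38). The region at 190979116 to 190979561, 29.1 kb upstream, fell, with 28, 32 and 40 in active libraries, against 65, 68 and 68 in inactive ones (-1.0 ± 0.17 SE, limma adjusted p = 4.13e-06). Of 12 Atf3 regions 4 rose and 1 fell. The call at 190921914 to 190922544 (0.37) was lost without active replicate 3 (0.23) or inactive replicates 1 (0.35) or 2 (0.32). The window median was 0.15, and centred values left 3 regions higher and 2 lower. The surrounding 5 Mb were shifted by 0.27, and with values centred on them 1 region was higher and 3 were lower. The annotated region 1.69 kb downstream of the listed start did not pass then (0.16, limma adjusted p = 0.168). The locus sum was 942 ± 38.7 with the active ribozyme and 832.7 ± 36.5 with the inactive one (log2 ratio 0.18, exact permutation p = 0.1).

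Levels of promoter regions were compared between genes per kb of region. In the active libraries Fosl2 was the densest (835.3 ± 37.1 normalised reads per kb), followed by Junb (771.2 ± 28.4), Jund (664.4 ± 5.45), Jun (618.5 ± 7.42), Fos (559.1 ± 10.3), Fosl1 (535.7 ± 36.3) and Fosb (239.8 ± 14.1; SD, n = 3 each). Of neighbours in this order, only Fos and Fosl1 overlapped between libraries. In the inactive libraries the order was Junb (965.2 ± 52.3), Jund (852.6 ± 33.9), Fosl2 (815.8 ± 36), Jun (684.9 ± 17.6), Fosl1 (586.7 ± 54.4), Fos (465.4 ± 41.7) and Fosb (359.5 ± 36.6), with overlap between Jund and Fosl2 only. Fosb was thus the least dense in both groups.

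A few further calls depended on how the fit was made. Without trend the calls at Fosl1 5482046 (adjusted p = 0.0509 by limma), Fosl2 32334202 (0.0681), Junb 85711302 (0.0539) and Junb 85724436 (0.0578) were lost as well. After all libraries were thinned to the depth of the shallowest, the regions at Fosl2 32334202 (log2 fold change 0.29), Junb 85711302 (0.25), Jun 94926141 (-0.61) and the weak Jund region at 71132237 (0.43) did not pass.

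Removing the local shift changed which AP-1 regions were called. With values centred on the 10 Mb window 13 of the 74 regions were higher and 26 lower, while over all regions 26.7% were higher and 24.3% lower. Of the 45 regions called without centring, 31 kept their call and direction, 12 lost it and 2, both at Fos, were called in the opposite direction. The matching shares over all called regions were not computed. A further 6 were called only after centring. Among promoters 5 of 7 were then lower (Fos, Fosb, Jun, Junb and Jund) and 1 higher (Fosl1), against 24.6% lower and 12.0% higher of all promoter regions. With values centred on the regions within 5 Mb instead, those within 200 kb left out, 10 of the 74 were higher and 30 lower, and the Fosl2 promoter was lower too (-0.12, limma adjusted p = 0.0408), while the Atf3 region 1.69 kb downstream of the start (0.16) did not pass. Over all regions 26.7% were higher and 24.9% lower in that fit. The 3 Jun genes together had 6 regions higher and 12 lower of 26 without centring, and 5 and 13 with window centring. The 4 Fos genes had 10 higher and 12 lower of 36 without centring, and 5 and 11 with window centring. Beside these stand 30.9% higher and 29.2% lower of all regions without centring, and 26.7% and 24.3% with window centring. The difference between both families was not tested.

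**Figure D3:**
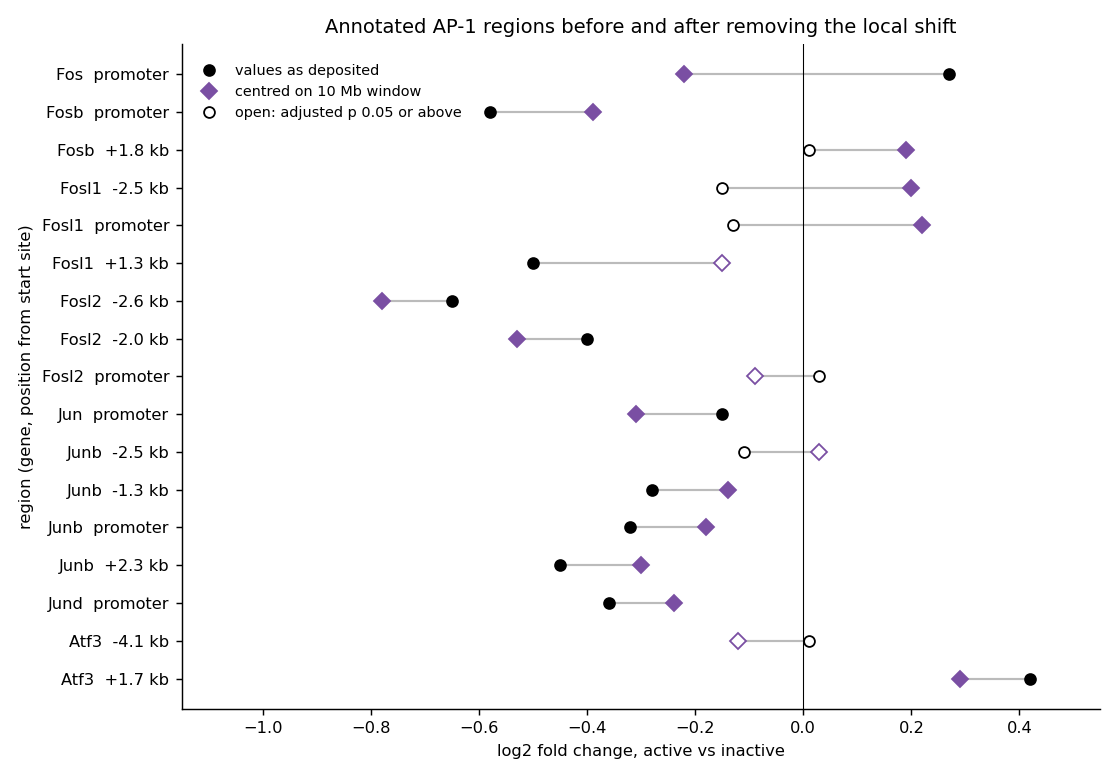
Log2 fold change, active against inactive (x axis), of the 17 regions annotated to the 8 genes (y axis) with values as deposited (black circles) and centred on the 10 Mb window (purple diamonds); open symbols did not pass an adjusted p of 0.05. The Fos promoter goes to -0.22 with centring and stands at 0.27 without it, whereas the promoters of Fosb, Jun, Junb and Jund lie below 0 both ways.

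Genes that act with AP-1 also changed in both directions. Other leucine zipper partners of Fos and Jun (ATF2-type, BATF, JDP2 and MAF proteins) had 9 promoter regions, of which 4 were higher and 3 lower (median log2 fold change 0.20, against -0.11 over all promoter regions). Over all promoter regions 21.0% were higher and 37.6% lower, shares against which the uncentred counts of this and the following lists are to be read. With values centred on the window, 2 of the 9 were higher and 1 lower, and the median was 0.01. With the same centring 12.0% of all promoter regions were higher and 24.6% lower. Jdp2, which encodes a repressor that pairs with Jun and lies in the window of Fos, rose at its promoter (328.3 ± 26.8 in active and 249.3 ± 14.2 in inactive libraries, 0.39), but stood at -0.09 and did not pass with centred values. Batf3, a dendritic cell factor whose gene shares the window of Atf3, rose (34.3 ± 4.51 in active libraries, against 21.3 ± 2.31 in inactive ones, 0.66), as did Mafa, known from pancreatic beta cells (0.47). Batf2 (-0.32), Maf (-0.20) and Atf2, a Jun partner (-0.12, limma adjusted p = 0.0485), fell. None of these 3 passed with centred values (0.03 for Batf2, -0.13 for Maf and 0.01 for Atf2).

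Of the other leucine zipper factors, CREB, C/EBP and relatives, 14 of 22 promoter regions were lower and 3 higher (median -0.22), beside 37.6% and 21.0% of all promoter regions. With window centring 9 were lower and 2 higher, beside 24.6% and 12.0% of all promoter regions. In limma without trend 9 were lower also. Creb5, a CRE-binding factor that can pair with Jun, rose the most, at 96.7 ± 4.04 with the active ribozyme and 15.3 ± 2.52 with the inactive one (2.59 ± 0.19 SE, limma adjusted p = 3.24e-15). Bach2, a repressor of lymphocytes, rose by 1.43 on the log2 scale and Creb3l2, a membrane-bound factor of secretory cells, by 0.20. Creb3l2 lay in a window with a median of 0.79 and was called lower with centred values (-0.57, limma adjusted p = 4.22e-11). Cebpa, a factor of fat and blood cell differentiation, fell to 43.7 ± 1.53 in the active libraries, against 118.3 ± 16.7 in the inactive ones (-1.41 ± 0.14 SE, limma adjusted p = 3.28e-11). Crem, whose short forms repress CREB targets (-0.59), and 1 of 2 promoter regions of Atf6, a sensor of endoplasmic reticulum stress (-0.40), fell too. The window of Crem had a median of -0.61, and with centred values Crem did not pass (-0.01).

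In the MAP kinase pathway, which carries signals to AP-1, 14 of 28 promoter regions were lower and 7 higher (median -0.20), beside 37.6% and 21.0% of all promoter regions. Centred on the window, 7 were lower and 5 higher (median -0.05), beside 24.6% and 12.0% of all promoter regions. Centred on the surrounding 5 Mb, 6 were lower and 3 higher, beside 25.1% and 12.1%. Mapk12, a stress-activated MAP kinase, rose the most, with 64, 95 and 80 in active and 7, 8 and 12 in inactive libraries (3.03 ± 0.23 SE, limma adjusted p = 2.19e-14). Rps6ka1, a kinase below ERK (1.38), and Mapk11, a further stress-activated kinase (0.75), rose. Map3k11 (-0.84) and Map3k2 (-0.57), both upstream kinases of JNK signalling, and 1 of 2 promoter regions of Mapk3, which encodes an ERK (-0.52, limma adjusted p = 0.0454), fell. Centred, Mapk3 did not pass (-0.43). Among factors that act on the Fos and Jun promoters 5 of 13 promoter regions were lower and 3 higher (median -0.12), shares near the 37.6% and 21.0% of all promoter regions. Centred on the window, 3 were lower and 1 was higher, beside 24.6% and 12.0% of all promoter regions. Srf, the serum response factor that binds the Fos promoter, fell, with 568, 650 and 642 in active libraries, against 732, 750 and 728 in inactive ones (-0.25 ± 0.05 SE, limma adjusted p = 1.41e-04). In 1 of 2 promoter regions Elk3, a ternary complex factor that joins it, fell by 0.42 on the log2 scale, and Mef2d fell by 0.29, while Yy1 (0.45), Sp1 (0.30) and Mrtfa, an actin-regulated partner of Srf (0.23), rose. With centred values none of these 3 rises passed (-0.12 for Yy1, 0.06 for Sp1 and -0.13 for Mrtfa). The counts of this list rest on few regions: 3 were lower without active replicate 3 or without inactive replicate 3.

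Textbook AP-1 targets had 28 promoter regions, of which 7 were higher and 10 lower (median -0.06), near the shares of all promoter regions (21.0% higher and 37.6% lower). With window centring 4 were higher and 8 lower, beside 12.0% and 24.6% of all promoter regions. Lif, a cytokine, rose with 84, 101 and 118 with the active ribozyme and 35, 36 and 39 with the inactive one (1.43 ± 0.15 SE, limma adjusted p = 2.12e-10). Krt8, a keratin (0.78), and Spp1, which encodes osteopontin (0.60), rose as well. Centred, Spp1 did not pass (0.19). Egfr, the receptor of epidermal growth factor, fell, with 15, 16 and 19 in active and 60, 68 and 69 in inactive libraries (-1.92 ± 0.20 SE, limma adjusted p = 8.59e-11). Tgfb1, a growth factor (-0.85), and Mmp3, a matrix protease (-0.69), fell also. The window of Mmp3 had a median of -0.61, and with centred values its promoter did not pass (-0.11). The plot of promoter changes by list sets these beside the AP-1 members.

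**Figure D4:**
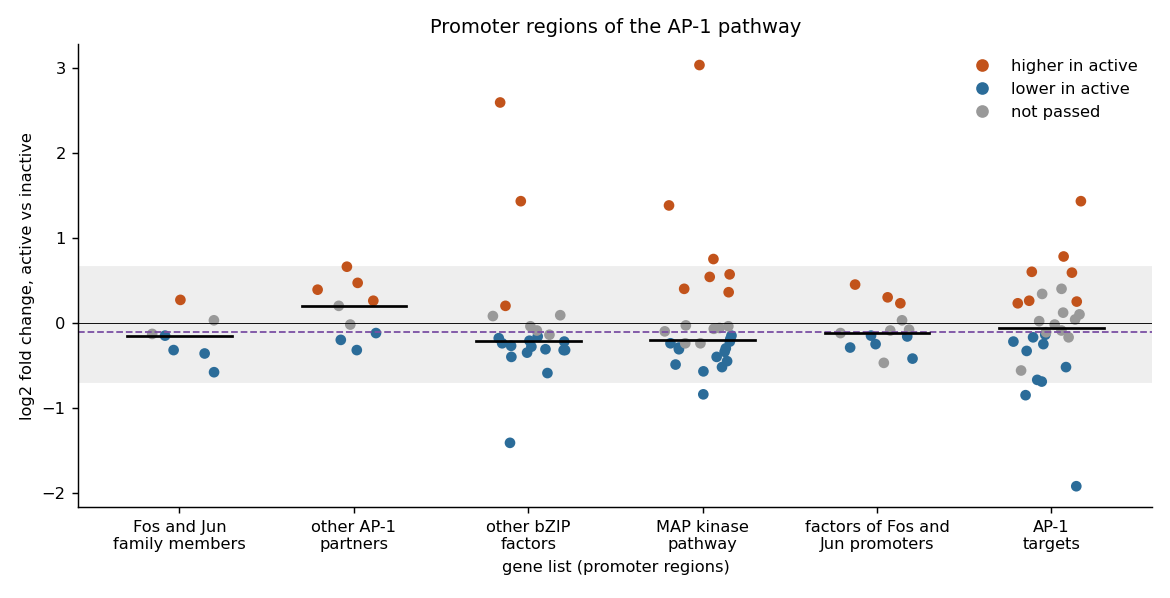
Log2 fold change, active against inactive (y axis), of promoter regions of the Fos and Jun genes and of 5 related gene lists (x axis); each point is a region coloured by its call, black bars are list medians, the grey band spans the 5th to 95th percentile of all promoter regions (-0.69 to 0.66) and the dashed line is their median (-0.11). The 7 Fos and Jun promoters lie within the band, while Mapk12 (3.03), Creb5 (2.59) and Egfr (-1.92) lie outside it.

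For the promoters of 6 members, the promoter of another gene with the smallest Euclidean distance over the log2 values of the 6 libraries was sought among 9649 promoter regions. These were Ogfod2 for Fos (distance 0.11), Ercc3 for Fosb (0.14), Cdc42ep2 for Fosl1 (0.14), Zfpm1 for Fosl2 (0.14), Lims1 for Jun (0.04) and Myl6 for Junb (0.13). Of these only Cdc42ep2 shares the chromosome of its match.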

How the data were processed

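ATAC-seq was done on 6 libraries of NIH3T3 cells, 3 with an active and 3 with an inactive ribozyme, grouped by the knock-in label. Per the labels' protocols, digitonin lysis and tagging by Tn5 took place in 1 step before paired-end sequencing. Build mm39 and, among the tools, DESeq2 1.36.0, featureCounts, STAR 2.7.11a, Picard 3.1.1 and Trimmomatic 0.39 are named by the submitters' processing notes. How peaks were called and merged, and whether reads were shifted for Tn5, is not given in the sources used here. The deposited table holds a score per region: whole numbers that, from the values, are reads scaled per library and rounded, since column totals are nearly equal and some whole numbers never occur in 2 of the libraries. Reads were not recovered exactly, so no count model was used.

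In R 4.3.3, limma 3.58.1 was run on log2(value + 1) (trend and robust settings, no covariate) over all regions with a mean of at least 10, with Benjamini-Hochberg adjustment over the whole table at 0.05. Locus sums were compared by exact permutation over libraries. Python 3.11.15, numpy 2.4.6, pandas 2.3.3, scipy 1.17.1 and matplotlib 3.10.9 were used for the rest, and the fit was tested on simulated data. All annotated AP-1 regions are named. Of unnamed regions the most accessible and up to 3 called with the largest change per gene are named by rule, and a few further ones were chosen after their values were seen. Of each list the 3 higher and 3 lower promoter regions with the largest change are named. Members and lists were chosen with earlier results of these data known. Alternatives were other pseudocounts, filters, normalizations, centring, tests, distances, thinning to equal depth and leaving out each library. The promoter most alike that of Jund is not reported here.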

Additional observations from a re-analysis of the deposited data

How the results depend on the processing

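Of the 45 called AP-1 regions, 21 (5 higher, 16 lower) kept their call and direction under all 17 alternative fits that tested them, and pseudocounts of 5 or 0.5, array weights, a filter at a mean of 30, no filter and the replicate block lost none. The block, whose same-numbered libraries had correlations of 0.001, -0.006 and -0.016, gave 20 regions higher and 25 lower. Limma without trend lost 12 calls, thinning to equal depth 7 and quantile normalization 3, and the cause was not tested. For these kept and lost calls the shares over all called regions were not computed. The counts thus describe the AP-1 regions only. Active libraries were shallower, which limits regions with few reads.

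Centred on the 10 Mb window, higher AP-1 regions went to 13 and higher nearby ones to 12 (20 and 19 uncentred), and centred on the surrounding 5 Mb to 10 and 9. Without trend 0 promoters were higher. For the partner list the higher and lower counts went to 2 and 1 with either centring, and the lower count to 1 without trend or thinned. Lower CREB and C/EBP promoters went to 9 (window, or no trend). MAP kinase counts went to 7 lower (window), 3 higher and 6 lower (5 Mb) and 9 lower (no trend). Factors of the Fos promoter went to 1 higher and 3 lower (window) and 1 lower (no trend), and ranged from 3 to 6 lower with 1 library left out. Targets went to 4 higher with either centring and to 6 lower without trend.

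With window centring the sums at Fos (-0.09), Fosl1 (0.06) and Fosl2 (-0.12) changed sign. The Fosl2 sum, at 0.00, also went to -0.03 thinned and -0.02 within 20 kb, and from -0.03 to 0.02 with 1 library left out. With window and 5 Mb centring the sign changed at the Fos promoter (-0.22 and -0.25), Fos 85501735 (-0.11 and -0.15), Fosb 19050609 (0.02 and 0.03), Fosl1 5482862 (0.03 and 0.01), Fosl1 5494718 (0.20 and 0.18), the Fosl1 promoter (0.22 and 0.20), the Fosl2 promoter (-0.09 and -0.12), Junb 85707708 (0.03 and 0.02) and Atf3 190954137 (-0.12 and -0.25). Values near 0 turned at the Fosl2 promoter (-0.04 thinned), at Fosb 19041470 (0.00 thinned), and with 1 library left out at Atf3 190954137 (-0.05 to 0.08), Fosb 19041470 (-0.02 to 0.05) and the Fosl2 promoter (0.00 to 0.06). Local shifts over the whole chromosome were 0.50 (Fos), -0.13 (Fosb), -0.24 (Fosl1), 0.29 (Fosl2), 0.00 (Jun), -0.11 (Junb and Jund) and 0.01 (Atf3), and within 5 Mb 0.52 (Fos), -0.13 (Junb) and 0.27 (Atf3).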
